A study of Homo sapiens with 22 samples.

Results

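The nuclear genes for the subunits of the respiratory chain and of the mitochondrial ATP synthase were followed in 3 human liver cancer cell lines after knockdown of COP1, a RING-type E3 ubiquitin ligase. The members were chosen by symbol alone, as every annotated gene that starts with NDUFA, NDUFB, NDUFC, NDUFS, NDUFV, UQCR, ATP5, COX4, COX5, COX6, COX7 or COX8, or that encodes a succinate dehydrogenase subunit, without complex I assembly factors and without 1 pseudogene. This gave 75 of 16922 named genes, measured by 90 of 24526 probes. There were 33 genes of complex I, 3 of complex II, 7 of complex III, 16 of complex IV and 16 of complex V, the last including ATP5IF1, which encodes an inhibitor of the enzyme and not a subunit. The cells were labelled Hep3B, HepG2 and Huh7, and each had received either a COP1 siRNA or a negative control siRNA, at 15 nM for 48 h. There were 4 COP1 siRNA and 4 control siRNA arrays for Hep3B, the same numbers for HepG2, and 3 COP1 siRNA and 3 control siRNA arrays for Huh7. RNA was read on Illumina HumanRef-8 v3 bead arrays, and levels are given as bead intensity, which the authors had corrected for background and brought to a common distribution over the 22 arrays (quantile normalization). The design text names 1 COP1 siRNA, so that an effect of lost COP1 and an effect of that siRNA on other transcripts cannot be told apart in these groups.

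The respiratory chain carries electrons from NADH (complex I) and succinate (complex II) through ubiquinone, complex III and cytochrome c to complex IV, cytochrome c oxidase, which reduces oxygen. Complexes I, III and IV pump protons across the inner mitochondrial membrane, and complex V, the ATP synthase, uses the gradient to make ATP. Apart from complex II, each complex joins a catalytic core to many small accessory subunits. These complexes also need subunits encoded in mitochondrial DNA, which are no members here. Hepatocytes hold many mitochondria, while liver cancer lines in culture draw much of their ATP from glycolysis.

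Changes are log2 differences of intensity after a normexp background correction with an offset of 50, and those of dim genes are therefore understated. A gene counts as changed at a limma p under 0.05 after Benjamini-Hochberg adjustment over all 13870 features tested, which include probes with no gene symbol. Each line was fitted alone. The labels do not say whether replicates were separate cultures, so p-values measure the spread between these arrays, which may be technical. In RNA from whole cultures, fewer cells of a kind and less RNA per cell cannot be told apart. Of the 75 members, 67 were above background on at least 3 arrays and were tested, and 63 of these were above background on all 22. A probe's intensity depends on its sequence, so levels are compared between arrays and never between genes.

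The targeted gene was lower wherever the labels said so. COP1 averaged 513 ± 72.7 with COP1 siRNA and 2356 ± 160 with control siRNA in the cells labelled Hep3B (intensity, SD, n = 4 each), 410 ± 45.5 and 1586 ± 157 in HepG2 (n = 4 each), and 279 ± 20.1 and 1801 ± 151 in Huh7 (n = 3 each). The corresponding log2 changes were -2.05, -1.78 and -2.40. The probe therefore stood at 15.5% to 25.8% of control, and no COP1 siRNA array overlapped a control array.

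The arrays labelled Hep3B went against the hepatocyte markers. Of 17 matched markers, 12 were above background on none of these 8 arrays, among them albumin (ALB), and only AFP, AHSG, FGA and SERPINA1 were above it on all. Their summed intensity lay between 427 and 553 with COP1 siRNA and between 393 and 548 with control siRNA, against 118620 to 206699 over the HepG2 and Huh7 arrays, where at least 16 of the 17 were above background on all arrays of every group. Of 7 matched fibroblast markers, PDGFRB and THY1 were above background on all arrays labelled Hep3B and 4 were above it on none, with a summed fibroblast marker intensity of 1354 to 1899 with COP1 siRNA and 2177 to 2949 with control siRNA, and CD14, CD68 and HLA-DRA were above background among 7 leukocyte markers, whose sum was 1961 to 2574 with COP1 siRNA and 2597 to 3348 with control siRNA. Results for these arrays are given under their label, and what the cells were was not tested. In Huh7 the summed hepatocyte markers were lower with COP1 siRNA, at 118620 to 147275, than with control siRNA, at 164261 to 178356, with 5 of 17 called lower by limma (9 without replicate 3), and the summed leukocyte markers were also lower, at 440 to 980 against 2251 to 2605, with CD14, CD3D and LYZ called lower. Among all features in Huh7, 5.35% were called lower, and 10.9% without replicate 3. Summed endothelial markers in Huh7 were 113 to 147 with COP1 siRNA and 62.3 to 78.3 with control siRNA, and summed fibroblast markers 146 to 202 and 75.9 to 149. In HepG2 the summed hepatocyte markers were 193049 to 198400 with COP1 siRNA and 199563 to 206699 with control siRNA, and the summed fibroblast markers were 73.9 to 133 with COP1 siRNA and 159 to 235 with control siRNA. The part of these markers in the results was not tested.

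Replicate 3 of the Huh7 COP1 siRNA group stood apart from the other arrays of its group. Over the 67 members its median deviation from the Huh7 control mean was -1.54 on the log2 scale, while replicates 1 and 2 of the same group were at 0.07 and -0.03. Over all features the median of replicate 3 was 0.02, a value that quantile normalization holds nearly fixed on every array. Of all 13870 features, replicate 3 had 1282 below -1 and 1215 above 1. Replicate 1 had 333 and 140, and replicate 2 had 387 and 171. Other genes low on replicate 3 include those for cytosolic ribosomal proteins, with a median of -1.52 over 68 genes, and for mitochondrial ribosomal proteins, with a median of -1.03 over 74. Huh7 results are therefore given with and without this array. Over all features, its root mean square deviation from its group mean was 0.418 on the log2 scale, against 0.274 and 0.218 for replicates 1 and 2.

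**Figure D1:**
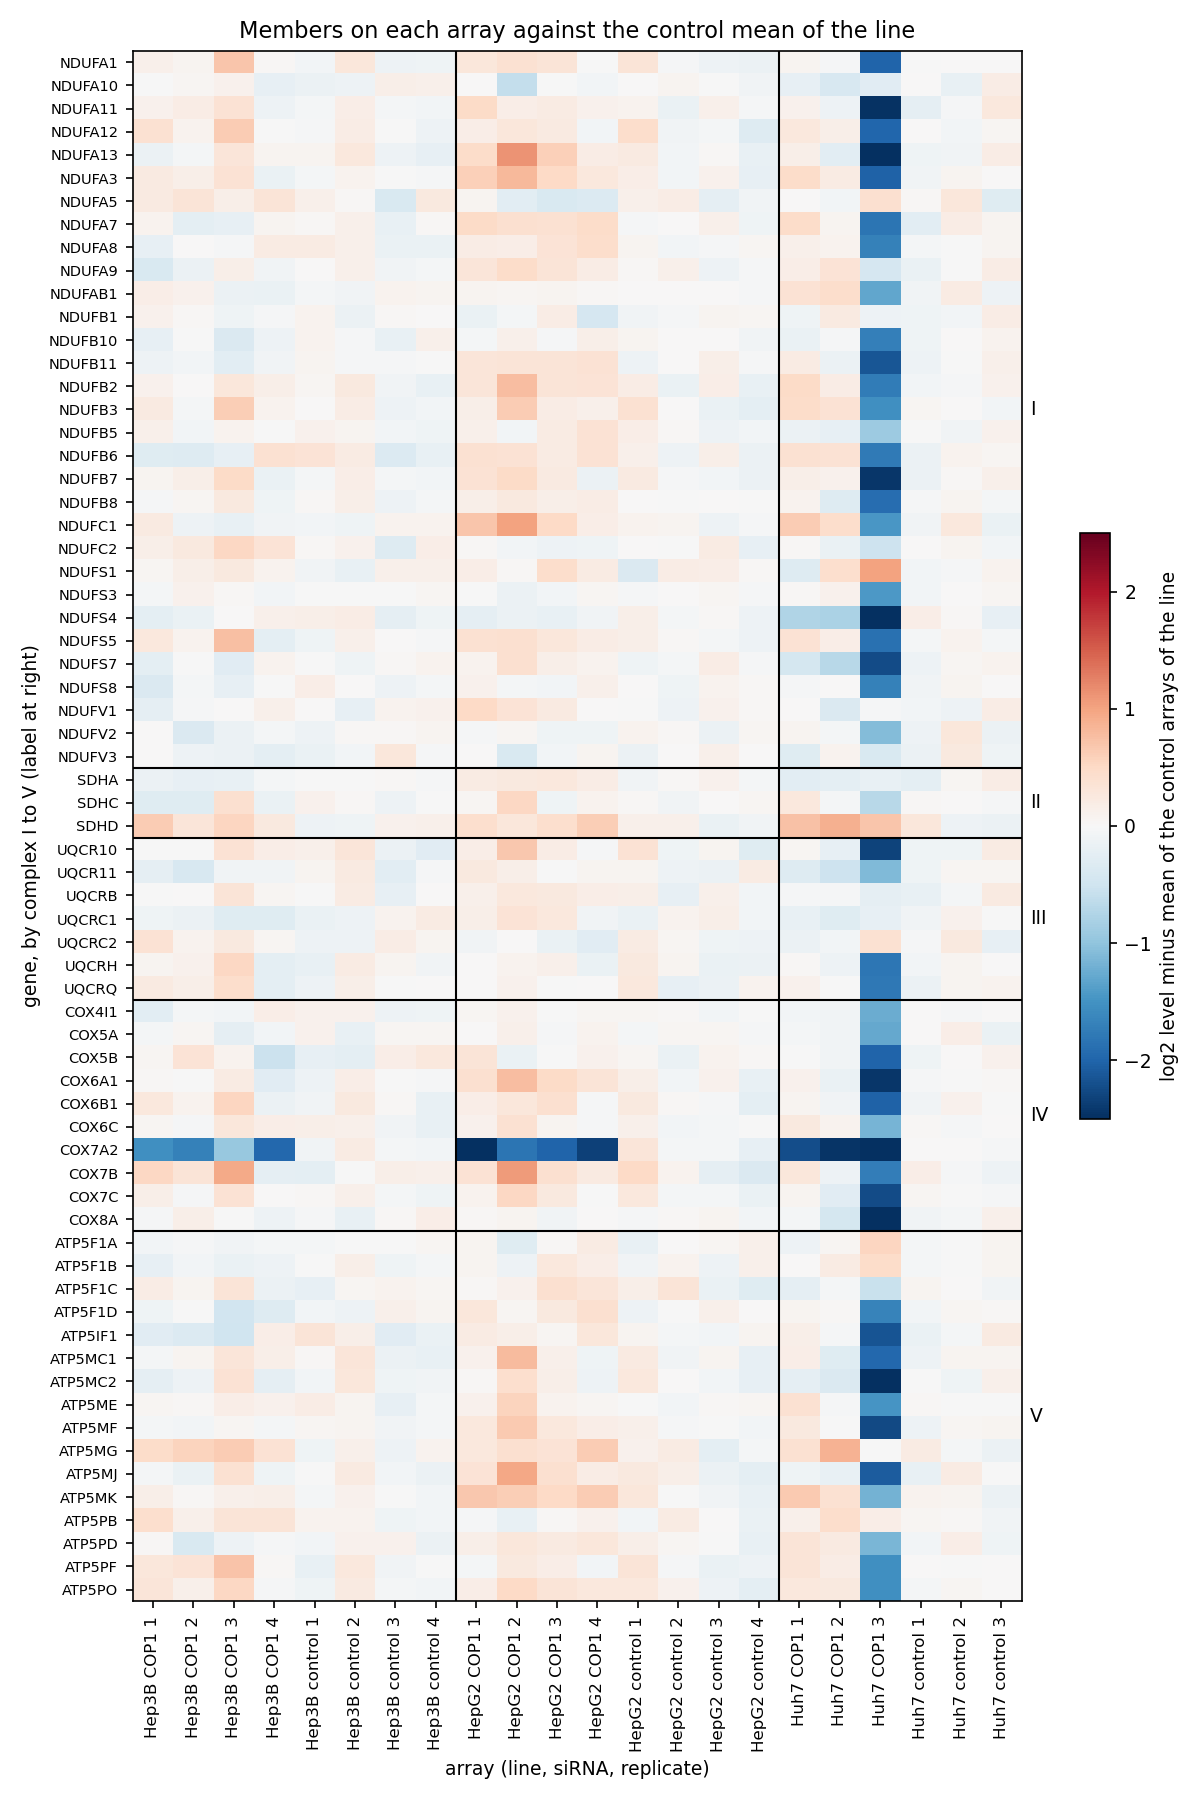
Each row is a tested member, grouped by complex I to V, and each column is an array, with COP1 siRNA left of control siRNA within Hep3B, HepG2 and Huh7. Colour gives the log2 level minus the mean of the control arrays of the same line. COX7A2 is low on all 11 COP1 siRNA arrays, and replicate 3 of the Huh7 COP1 siRNA group is low in 47 of 67 members by more than 1 log2 unit.

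COX7A2 fell with COP1 siRNA in all 3 lines and was the only member that did so in more than 1, against 1.39% of all features lower in all 3 and 5.16% in at least 2. It encodes subunit VIIa of cytochrome c oxidase in the isoform used by liver and most other tissues, and lies on chromosome 6 (75237675 to 75250298, GRCh38.p14). Its intensity in the cells labelled Hep3B was 2456, 2191, 3743 and 1806 with COP1 siRNA, against 6800, 8394, 7015 and 6860 with control siRNA. In HepG2 it was 1643, 2677, 2380 and 1862 with COP1 siRNA, against 12071, 9480, 9358 and 8415 with control siRNA. In Huh7 it was 3577, 3060 and 718 with COP1 siRNA, against 17215, 17215 and 16533 with control siRNA. Every COP1 siRNA array lay below every control array of its line, as it did in all 3 lines for 2.16% of all features. Group means were thus 35.1%, 21.8% and 14.4% of control in the 3 lines in that order.

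The log2 change of COX7A2 was -1.53 ± 0.16 in the cells labelled Hep3B (SE, limma adjusted p = 1.5e-06), -2.17 ± 0.14 in HepG2 (adjusted p = 2.4e-10) and -3.03 ± 0.49 in Huh7 (adjusted p = 0.0092). Without replicate 3 the Huh7 change was -2.33 ± 0.15 (adjusted p = 3.6e-07). Leaving out control replicate 1, 2 or 3 in Huh7, while keeping that array, left changes of -3.02, -3.02 and -3.05 with adjusted p of 0.062, 0.067 and 0.064. Ordered from the lowest log2 change of all 13870 features, COX7A2 was at place 15 in the cells labelled Hep3B, place 8 in HepG2 and place 1 in Huh7, where it was at place 9 without replicate 3. The next lowest member changed far less. It was ATP5IF1 at -0.24 in the cells labelled Hep3B, NDUFA5 at -0.23 in HepG2, and NDUFS4 at -1.41 in Huh7, or -0.77 without replicate 3. NDUFA5 was above background on only 3 of the 22 arrays, so its change is limited by its signal. Among members above background on all arrays, the next lowest in HepG2 was NDUFA10 at -0.16.

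Most members passed the test in no line. Of 67 members, 4 rose and 1 fell in the cells labelled Hep3B, which is 7.46% against 28.3% of all features (14.7% higher and 13.5% lower), and the median log2 change was 0.00. In HepG2, 16 rose and 1 fell, 25.4% against 24.5% of all features, with 12.3% of all features called higher and 12.1% lower, and the median was 0.20 against 0.02 over all features. In Huh7, 1 rose and 1 fell, 2.99% against 9.39% of all features (4.04% higher and 5.35% lower), with a median of -0.43. Without replicate 3, 4 rose and 3 fell in Huh7, against 10.3% of all features called higher and 10.9% lower, and the median was 0.01. With all arrays, the median residual SD of the members in Huh7 was 0.711, against 0.231 over all features. A change of the same size was thus less readily called in members there. The same values were 0.160 and 0.163 in HepG2, and 0.160 and 0.135 in the cells labelled Hep3B. Over the 3 lines, 48 of 67 members were called in none, against 53.3% of all features.

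**Figure D2:**
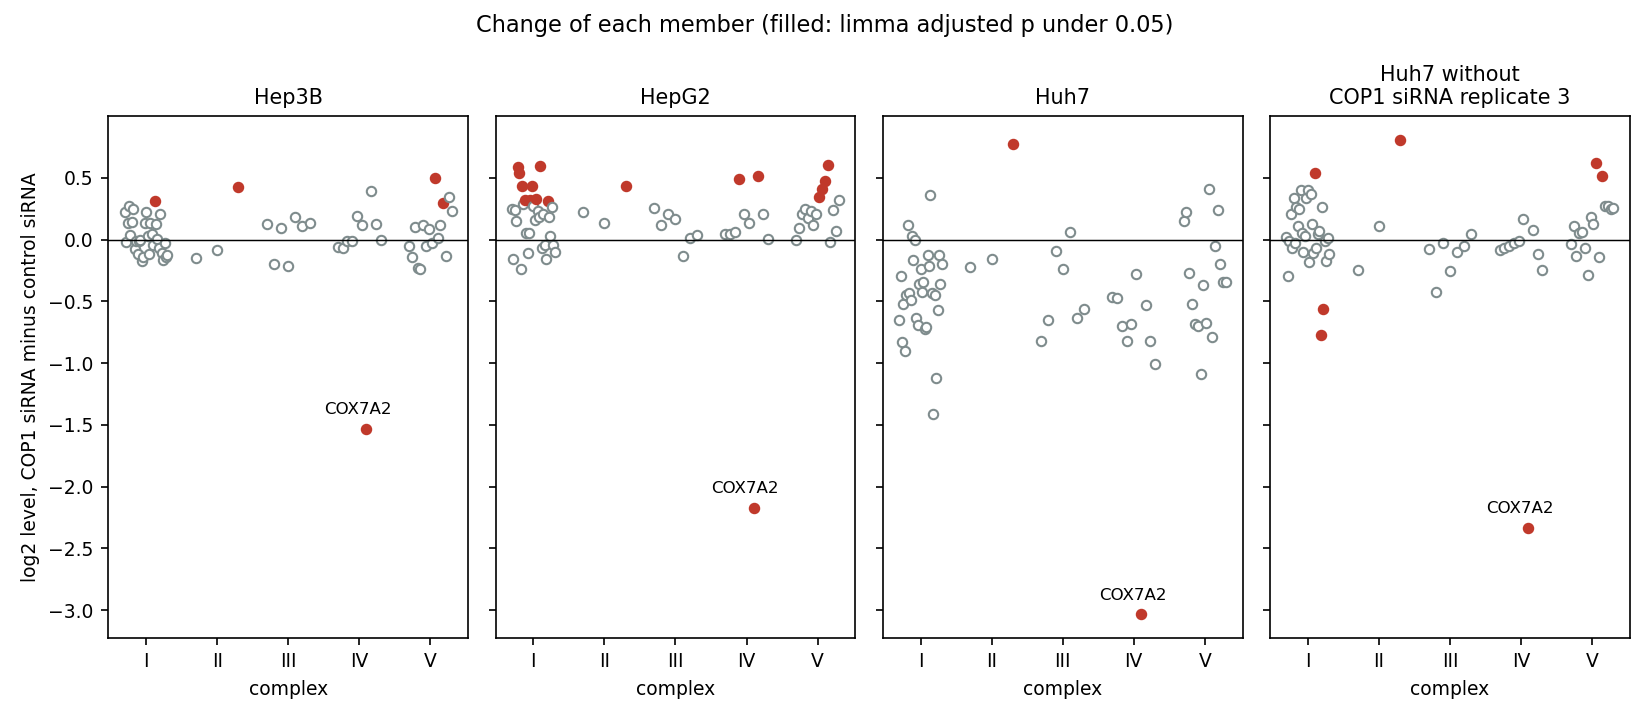
Log2 level with COP1 siRNA minus control siRNA (y axis) for each tested member by complex (x axis), in Hep3B, HepG2, Huh7 and Huh7 without COP1 siRNA replicate 3. Filled points passed the limma test at an adjusted p under 0.05. COX7A2 lies at -1.53, -2.17, -3.03 and -2.33, and the remaining filled points are the members named in the text.

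No other subunit of cytochrome c oxidase was called lower in any line when each line was fitted alone, with or without Huh7 COP1 siRNA replicate 3. Of 16 complex IV genes, 10 were tested. COX6A1, the subunit VIa isoform of most tissues, rose in HepG2, where it was at 3030, 3912, 3194 and 2847 with COP1 siRNA and at 2513, 2160, 2451 and 1997 with control siRNA (log2 change 0.49 ± 0.12 SE, limma adjusted p = 0.0041). All 4 COP1 siRNA arrays lay above the controls, as for 1771 of 13870 features in that line. COX7B, subunit VIIb, was at 0.51 ± 0.17 in HepG2 (adjusted p = 0.035), with overlapping groups of 2546 to 4625 with COP1 siRNA and 1668 to 3073 with control siRNA. In Huh7 COX6A1 was at -0.82 with all arrays and -0.02 without replicate 3, and COX7B at -0.53 and 0.08. In the cells labelled Hep3B COX6A1 was at -0.01 and COX7B at 0.40, and neither gene passed the test outside HepG2. COX4I1, the isoform of the largest nuclear-encoded subunit found in most tissues, had a log2 change of -0.06 in the cells labelled Hep3B, 0.05 in HepG2 and -0.47 in Huh7, or -0.08 without replicate 3. COX8A, the subunit VIII isoform of most tissues, was at 0.00, 0.01 and -1.005 in that order of lines, and at -0.25 in Huh7 without replicate 3. None of these COX4I1 and COX8A values passed the limma test, the smallest adjusted p being 0.28. In Huh7 all 3 COP1 siRNA arrays lay below all control arrays for COX4I1, as they did for 2221 of 13870 features.

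The tissue-restricted isoforms of complex IV were at or below background on nearly all arrays. COX7A1, the heart and muscle counterpart of COX7A2, was above background on 1 array, a Huh7 control, with a highest intensity of 39.1. COX6B1, the ubiquitous subunit VIb, changed by 0.19, 0.21 and -0.68 in Hep3B, HepG2 and Huh7 (-0.01 without replicate 3), none past the limma test. COX6B2, the testis counterpart of COX6B1, was above background on 2 arrays with a highest intensity of 39.1, and COX4I2, COX6A2, COX7B2 and COX8C were above it on none, with highest intensities of 16.6, 11.7, 9.42 and 14.2. The other members never above background were NDUFB4 and NDUFS6, both subunits of complex I, with highest intensities of 8.67 and 20.4. A probe below background gives an upper limit on its own signal and does not show that the gene is silent.

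With all arrays, SDHD was the only member that rose in all 3 lines, a pattern found in 0.216% of all features. ATP5MG joined it when Huh7 COP1 siRNA replicate 3 was left out. In that fit 10.3% of all features were called higher in Huh7, against 4.04% with all arrays, and the share higher in all 3 lines was not counted. SDHD encodes the small membrane anchor subunit of succinate dehydrogenase and lies on chromosome 11 (112086873 to 112095794, GRCh38.p14). In the cells labelled Hep3B it was at 3037, 2417, 2859 and 2306 with COP1 siRNA, against 1771, 1804, 2098 and 2112 with control siRNA. In HepG2 it was at 2340, 2105, 2328 and 2663 with COP1 siRNA, against 1876, 1891, 1532 and 1617 with control siRNA. In Huh7 it was at 468, 533 and 459 with COP1 siRNA, against 323, 225 and 222 with control siRNA. The groups did not overlap in any line, with all COP1 siRNA arrays higher, as in 0.548% of all features, and the Huh7 COP1 siRNA array that was low for most members was not low here. The log2 changes were 0.43 ± 0.10 (SE, limma adjusted p = 0.0044) in the cells labelled Hep3B, 0.43 ± 0.11 (adjusted p = 0.0070) in HepG2 and 0.77 ± 0.17 (adjusted p = 0.029) in Huh7. The Huh7 change was 0.81 with an adjusted p of 0.0036 without replicate 3, and it missed the threshold without COP1 siRNA replicate 2 (0.71, adjusted p = 0.10) and without control replicate 1, 2 or 3 (0.91, 0.71 and 0.70, adjusted p = 0.058, 0.14 and 0.14), and also without the normexp correction (0.94, adjusted p = 0.056). The Huh7 call of SDHD also ended when replicate number was added as a block.

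SDHA, the flavoprotein that oxidises succinate, had a log2 change of -0.15 in the cells labelled Hep3B, 0.22 in HepG2 and -0.22 in Huh7, each short of the limma threshold. In HepG2 its COP1 siRNA arrays, at 1967 to 2097, lay above the control arrays at 1625 to 1873, while in the cells labelled Hep3B they lay below, at 1388 to 1553 against 1590 to 1664. Groups were apart in the same direction for 1771 of 13870 features in HepG2 and for 1884 in the cells labelled Hep3B. SDHC, the larger membrane anchor, was at -0.09, 0.14 and -0.16 in that order of lines, also short of the threshold, with overlapping groups in each.

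Of the 16 complex V genes, ATP5MG was called higher in 2 lines, so that it and SDHD were the members higher in at least 2, against 3.04% of all features. It encodes subunit g of the ATP synthase membrane sector, which takes part in dimer formation, and lies on chromosome 11 (118401606 to 118409847, GRCh38.p14). In the cells labelled Hep3B it was at 493, 536, 568 and 454 with COP1 siRNA, against 312, 380, 306 and 364 with control siRNA (log2 change 0.50 ± 0.09 SE, limma adjusted p = 0.00064). In HepG2 it was at 440, 491, 468 and 589 with COP1 siRNA, against 383, 415, 285 and 338 with control siRNA (0.41 ± 0.12, adjusted p = 0.014). The groups were apart in both lines, as (with COP1 siRNA higher) were those of 2041 of 13870 features in Hep3B and 1771 in HepG2. In HepG2 the adjusted p was 0.057 without COP1 siRNA replicate 4 and 0.061 without control replicate 3. In Huh7 it was at 265, 400 and 184 with COP1 siRNA, against 225, 177 and 159 with control siRNA, so that the groups overlapped. Its Huh7 change was 0.41 (adjusted p = 0.31), and 0.62 with an adjusted p of 0.022 without that array.

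ATP5MK, which encodes a small subunit of the membrane sector also called DAPIT, had the largest rise of any member in HepG2. It was at 759, 717, 658 and 736 with COP1 siRNA, against 561, 440, 418 and 379 with control siRNA, a log2 change of 0.61 ± 0.12 (SE, limma adjusted p = 0.00050). Huh7 COP1 siRNA replicates 1 and 2 were at 571 and 458 and replicate 3 at 107, against 361, 355 and 296 with control siRNA. This gave -0.05 with all arrays and 0.51 (adjusted p = 0.031) without replicate 3. The direction in Huh7 thus turned on 1 array. ATP5MJ, another small membrane subunit, rose by 0.47 in HepG2 (adjusted p = 0.023) and ATP5MF, subunit f, by 0.34 (adjusted p = 0.038). ATP5PB, subunit b of the peripheral stalk, rose in the cells labelled Hep3B, at 5983, 4831, 5521 and 5552 with COP1 siRNA against 4685, 4674, 4126 and 4237 with control siRNA (0.30 ± 0.09 SE, adjusted p = 0.020).

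**Figure D3:**
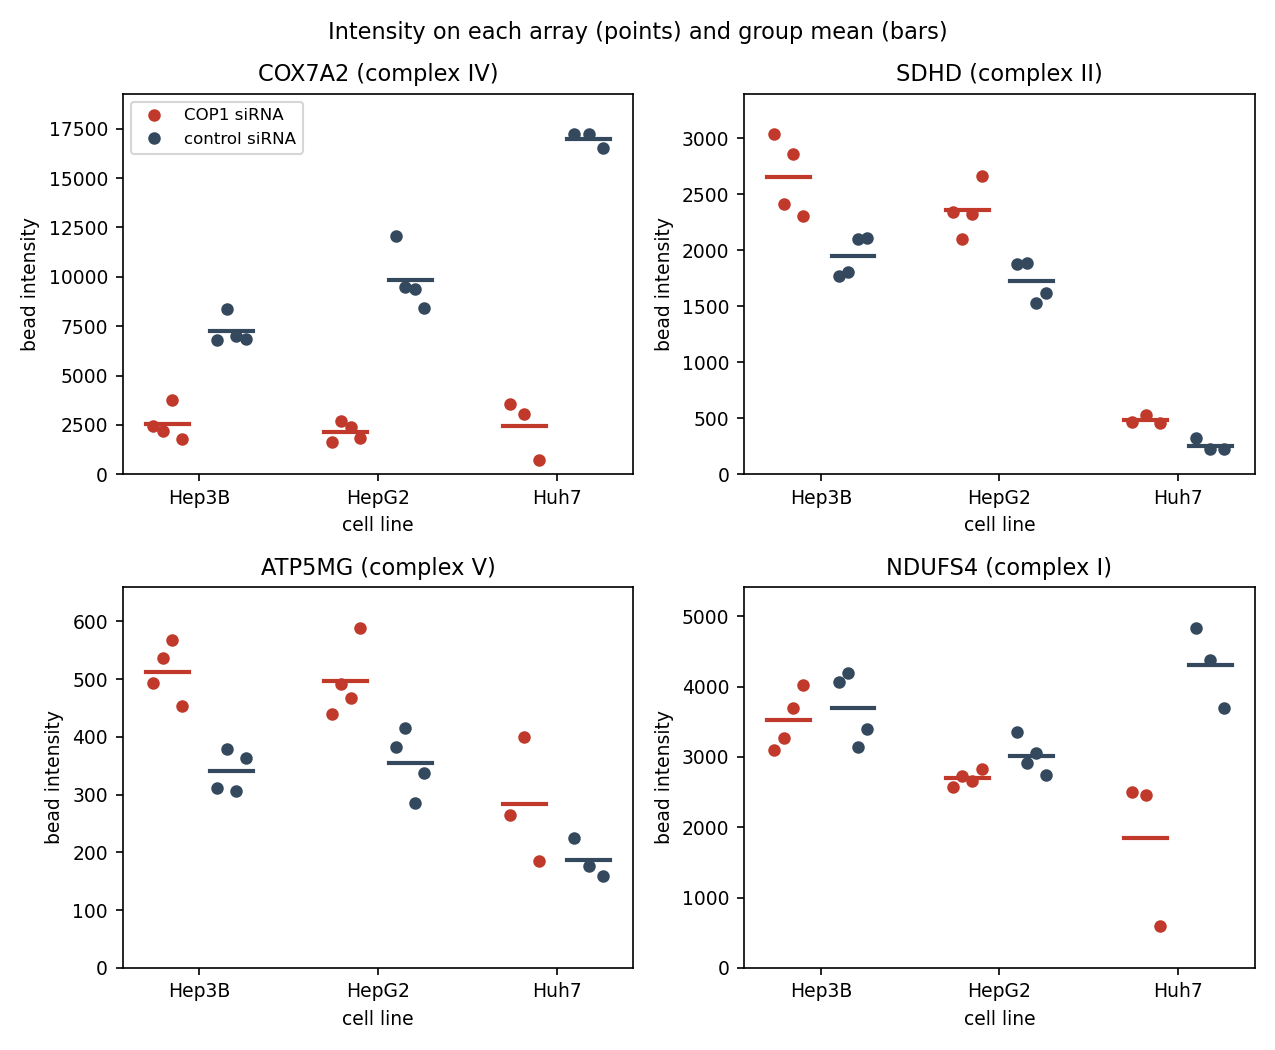
Bead intensity (y axis, linear) of COX7A2, SDHD, ATP5MG and NDUFS4 on each array (points) with the group mean (bar), COP1 siRNA left of control siRNA in Hep3B, HepG2 and Huh7. COX7A2 is lower and SDHD higher on every COP1 siRNA array than on any control array of the same line, and NDUFS4 is apart in Huh7 alone among the lines.

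The promoters of the members that moved in more than 1 line are shown so that their letters can be set beside those of the whole family. In RefSeq (GRCh38.p14), 64 of the 75 genes matched 76 windows of 300 bases, each with 250 bases before and 50 after an annotated start. Exact letters were searched on both strands: GCATGCGC (the NRF1 core), CCGGAAG (the ETS core), AAGATGGCG (the YY1 core) and TATAAA (the TATA box). Matches are in capitals and the windows run 5′ to 3′ on the gene's strand. The COX7A2 windows at its upstream and downstream starts lie on the minus strand at chr6:75250249-75250548 and chr6:75243752-75244051, the SDHD window on the plus strand at chr11:112086623-112086922 and the ATP5MG window on the plus strand at chr11:118401356-118401655.
COX7A2 upstream start: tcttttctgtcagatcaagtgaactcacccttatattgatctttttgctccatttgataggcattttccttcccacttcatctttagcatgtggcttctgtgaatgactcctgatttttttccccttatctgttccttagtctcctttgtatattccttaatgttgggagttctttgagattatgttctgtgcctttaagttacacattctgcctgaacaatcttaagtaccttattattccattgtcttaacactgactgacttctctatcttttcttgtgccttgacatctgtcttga
COX7A2 downstream start: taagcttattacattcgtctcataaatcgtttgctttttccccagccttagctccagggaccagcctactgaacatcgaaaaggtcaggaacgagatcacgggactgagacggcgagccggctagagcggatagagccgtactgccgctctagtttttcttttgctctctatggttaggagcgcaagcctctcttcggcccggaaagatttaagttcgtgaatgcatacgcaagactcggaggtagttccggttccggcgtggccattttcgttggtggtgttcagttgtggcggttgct
SDHD: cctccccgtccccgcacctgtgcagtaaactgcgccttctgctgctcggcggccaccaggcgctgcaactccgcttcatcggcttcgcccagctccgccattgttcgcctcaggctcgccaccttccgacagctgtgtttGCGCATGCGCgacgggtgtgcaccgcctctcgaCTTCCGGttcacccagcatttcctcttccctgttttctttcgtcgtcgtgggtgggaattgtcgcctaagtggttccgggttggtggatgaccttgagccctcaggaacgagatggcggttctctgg
ATP5MG: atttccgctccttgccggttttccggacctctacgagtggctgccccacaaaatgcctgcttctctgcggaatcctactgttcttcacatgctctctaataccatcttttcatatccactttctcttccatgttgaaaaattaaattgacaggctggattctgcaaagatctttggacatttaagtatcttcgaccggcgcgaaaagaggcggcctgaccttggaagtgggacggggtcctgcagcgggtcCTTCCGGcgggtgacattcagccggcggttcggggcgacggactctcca
SDHD held the NRF1 letters on both strands of an overlapping stretch and the ETS letters on the reverse strand, ATP5MG held the ETS letters on the reverse strand, and neither COX7A2 window held any of the 4 motifs. Over all member windows, 13 (17.1%) held the NRF1 letters against 3.74% of the windows of protein-coding genes, 21 (27.6%) held the ETS letters against 12.8%, 8 (10.5%) held the YY1 letters against 2.41%, and 6 (7.89%) held the TATA letters against 9.47%. Windows of the same gene can overlap, a match is no evidence of binding, and a missing match says only that these letters are not in the window.

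The HepG2 rises comprised 9 of 31 tested complex I genes, 1 of 3 complex II genes, none of 7 complex III genes, 2 of 10 complex IV genes and 4 of 16 complex V genes, against 12.3% of all features. NDUFC1, an accessory subunit, was at 2458, 3101, 2153 and 1702 with COP1 siRNA and at 1596, 1568, 1374 and 1470 with control siRNA in HepG2 (log2 change 0.59 ± 0.14 SE, limma adjusted p = 0.0030). NDUFA3, also an accessory subunit, was at 5376, 6185, 4966 and 4256 with COP1 siRNA and at 3969, 3326, 3776 and 3047 with control siRNA (0.54 ± 0.12, adjusted p = 0.0026). Neither gene overlapped between the groups. With COP1 siRNA higher, groups were apart for 11 of 31 tested complex I genes, against 1771 of 13870 features. NDUFA13, also known as GRIM-19, changed by 0.59 (adjusted p = 0.0067), with 2672, 4285, 2928 and 2193 with COP1 siRNA against 2268, 1829, 1963 and 1687 with control siRNA, of which the lowest COP1 siRNA array lay below the highest control. The other 6 were NDUFB2 (0.43), NDUFA7 (0.43), NDUFB6 (0.33), NDUFB11 (0.32), NDUFA9 (0.32) and NDUFS5 (0.31), with adjusted p between 0.0040 and 0.039. The count of 16 rises over all complexes in HepG2 was 10 without control replicate 2, 10 without control replicate 3 and 8 without control replicate 4.

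In Huh7 the complex I genes NDUFS4 and NDUFS7 were lower on all 3 COP1 siRNA arrays than on any control array. The same held in Huh7 for 4 of 31 tested complex I genes in all, 9 of 67 members and 2221 of 13870 features. NDUFS4, an accessory subunit whose loss causes Leigh syndrome in humans, lies on chromosome 5 (53560639 to 53683338, GRCh38.p14) and was at 2501, 2456 and 595 with COP1 siRNA, against 4837, 4386 and 3691 with control siRNA. NDUFS7, the core subunit that carries the last iron-sulfur cluster before ubiquinone, was at 3289, 2756 and 891 with COP1 siRNA, against 4095, 4618 and 4750 with control siRNA. Replicates 1 and 2 lay close together in each gene and replicate 3 far below. With all arrays the log2 changes were -1.41 (limma adjusted p = 0.093) for NDUFS4 and -1.12 (adjusted p = 0.13) for NDUFS7. Without replicate 3 both passed the test, at -0.77 ± 0.16 SE (adjusted p = 0.0033) and -0.56 ± 0.15 (adjusted p = 0.018). In HepG2 and in the cells labelled Hep3B both genes had overlapping groups, with changes between -0.15 and 0.18. NDUFC1 changed by 0.54 (adjusted p = 0.033) in Huh7 without replicate 3, with replicates 1 and 2 at 1402 and 1209 with COP1 siRNA against 814, 1060 and 770 with control siRNA, and by -0.13 with replicate 3 included.

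The only complex I call in the cells labelled Hep3B was NDUFC2, an accessory subunit, at 15.0, 21.1, 42.4 and 28.4 with COP1 siRNA against 8.68, 13.2, -9.43 and 16.7 with control siRNA (log2 change 0.31, limma adjusted p = 0.048). These values lie around the background threshold of 21.8, with 2 of 4 COP1 siRNA arrays above it and no control array. The count of 4 rises there was 8 without COP1 siRNA replicate 4 and 2 without control replicate 3, and the count of falls was 2 without COP1 siRNA replicate 4. The 7 complex III genes, which include the core proteins UQCRC1 and UQCRC2 and small accessory subunits, had log2 changes between -0.21 and 0.18 in the cells labelled Hep3B, between -0.13 and 0.25 in HepG2, and between -0.82 and 0.06 in Huh7 with a median of -0.07 without replicate 3.

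Members differed in how low they were on replicate 3 of the Huh7 COP1 siRNA group. Among the 63 members above background on all arrays, 47 were under 50% of the Huh7 control mean on it, with a median of 30.5%, whereas replicates 1 and 2 had medians of 107% and 97.8% and 1 member each under 50%, COX7A2. By complex, 22 of 28 complex I genes, 4 of 6 complex III genes, 10 of 10 complex IV genes and 11 of 16 complex V genes were under 50%, and none of the 3 complex II genes was. After COX7A2, the lowest were NDUFS4 at 13.8%, UQCR10 at 14.5% and ATP5MC2, a membrane ring subunit, at 14.6%. These are values of the main probes. Over the Huh7 arrays the main probe of UQCR10 changed by -0.82, and its other probes by 0.30 and 0.16. None of these passed the limma test. A dimmer probe of ATP5MC2 changed by -0.53, also short of the threshold. In all, 10 members stood at 80% or more. These were NDUFS1 at 234%, SDHD at 179%, ATP5F1A at 145%, UQCRC2 at 139%, ATP5F1B at 138%, ATP5PB at 113%, ATP5MG at 98.6%, NDUFV1 at 97.5%, SDHA at 86.7% and UQCRC1 at 86.6%. Catalytic core subunits were found at both ends, since NDUFS7 stood at 19.9%, NDUFS8 at 30.6%, NDUFS3 at 35.8% and NDUFV2 at 45.9%, beside NDUFS1 and NDUFV1 of the same complex. These shares describe 1 array and carry no test. Across the 62 members other than COX7A2 that were above background on all arrays, the deviation of replicate 3 had a Pearson r of -0.21 (Spearman rho -0.23) with the HepG2 log2 change and of 0.07 (rho -0.08) with the change in the cells labelled Hep3B, over genes that share their arrays and are not independent.

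**Figure D4:**
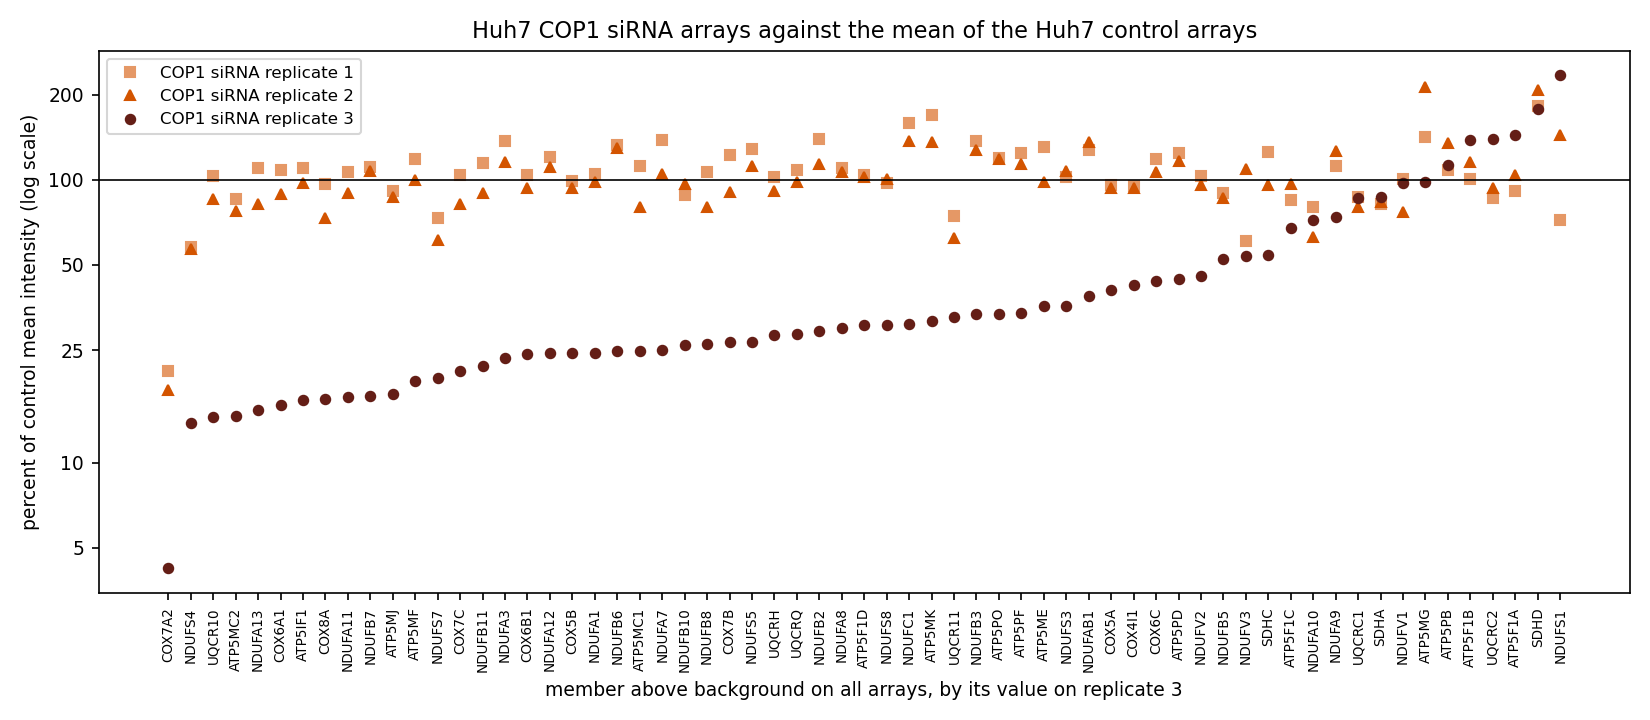
Intensity of each member on the 3 Huh7 COP1 siRNA arrays as a percentage of the mean of the Huh7 control arrays (y axis, log scale), for the 63 members above background on all arrays, ordered by replicate 3 (x axis). Replicates 1 and 2 have medians of 107% and 97.8%, and replicate 3 has a median of 30.5%.

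The responses of several members differed between the lines. In an F test over all 22 arrays weighted by line, 9 of 67 members passed at an adjusted p under 0.05, 13.4% against 34.5% of all features, and 12 passed without Huh7 COP1 siRNA replicate 3, against 39.3%. With that array, members had a larger spread in Huh7 than all features had. The smallest adjusted p were those of NDUFS7 (0.0076), NDUFS4 (0.0081), COX7A2 (0.014), SDHA (0.027), COX6A1 (0.031) and NDUFA13 (0.032), and they were 0.0090, 0.011, 0.015, 0.025, 0.022 and 0.042 without that array. ATP5MJ and UQCR11 passed with all arrays (0.040 and 0.046) and missed the threshold without it (0.073 and 0.068). For COX7A2 the response in the cells labelled Hep3B minus that in Huh7 was 1.502 ± 0.44 on the log2 scale (SE, adjusted p = 0.028), a smaller fall in the cells labelled Hep3B. The response in HepG2 minus that in Huh7 was 0.86 ± 0.46 (adjusted p = 0.21), and that in the cells labelled Hep3B minus that in HepG2 was 0.64 ± 0.28 (adjusted p = 0.087), so these pairs were not told apart. Without Huh7 COP1 siRNA replicate 3 the COX7A2 differences were 0.80 (adjusted p = 0.038) for Hep3B minus Huh7, 0.16 (adjusted p = 0.76) for HepG2 minus Huh7 and 0.64 (adjusted p = 0.024) for Hep3B minus HepG2. For NDUFS4 the response was higher by 1.35 ± 0.34 in the cells labelled Hep3B than in Huh7 (adjusted p = 0.011) and by 1.26 ± 0.36 in HepG2 than in Huh7 (adjusted p = 0.014). For NDUFS7 the same differences were 1.01 ± 0.31 (adjusted p = 0.041) and 1.30 ± 0.32 (adjusted p = 0.0057). Leaving out that array gave 0.70 (adjusted p = 0.0091) and 0.62 (adjusted p = 0.029) for NDUFS4, and 0.45 (adjusted p = 0.091) and 0.74 (adjusted p = 0.0062) for NDUFS7.

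Levels in control cells differed between the lines in many members, at shares near those of all features. The cells labelled Hep3B had 14 members higher and 22 lower than Huh7, 53.7% against 59.1% of all features (30.6% higher and 28.6% lower), and 15 higher and 25 lower than HepG2, 59.7% against 65.3% (34.1% higher and 31.2% lower). HepG2 had 15 higher and 17 lower than Huh7, 47.8% against 47.2% (23.8% higher and 23.4% lower). These fits use all arrays for the spread, and without Huh7 COP1 siRNA replicate 3 the counts were 20 higher and 30 lower, 18 higher and 26 lower, and 18 higher and 27 lower in the same order of pairs, against 68.6%, 65.6% and 57.4% of all features.

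SDHD, the member that rose with COP1 siRNA, also differed most between control cells. It averaged 1946 ± 184 in the cells labelled Hep3B, 1729 ± 182 in HepG2 (SD, n = 4 each) and 257 ± 57.5 in Huh7 (n = 3), so that Huh7 was far below the others, whose own difference of 0.16 did not pass the limma test (adjusted p = 0.18). Its difference was 2.62 ± 0.16 for Hep3B minus Huh7 (log2, SE, adjusted p = 5.4e-15) and 2.45 ± 0.17 for HepG2 minus Huh7 (adjusted p = 1.2e-13). UQCRC2, core protein 2 of complex III, averaged 869 ± 96.7 in the cells labelled Hep3B, 1492 ± 169 in HepG2 and 214 ± 45.3 in Huh7, with all 3 pairs past the test. NDUFAB1, the acyl carrier protein that is also a complex I subunit, averaged 7654 ± 469, 17698 ± 245 and 3825 ± 520 in that order of lines, and was 2.20 ± 0.22 higher in HepG2 than in Huh7 (adjusted p = 6.3e-10). NDUFB10, an accessory subunit, averaged 4022 ± 384, 2845 ± 130 and 1121 ± 80.3 in that order, and was 1.77 higher in the cells labelled Hep3B than in Huh7 (adjusted p = 1.0e-08).

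Other members ran the opposite way. NDUFA13 averaged 1172 ± 186 in the cells labelled Hep3B, 1937 ± 248 in HepG2 and 4765 ± 569 in Huh7, with differences of -1.96 and -1.27 on the log2 scale in Hep3B and HepG2 from Huh7 (limma adjusted p = 3.2e-06 and 0.0018). COX6B1 averaged 3949 ± 510, 6515 ± 934 and 13993 ± 993 in that order, with differences of -1.81 and -1.10 from Huh7 (adjusted p = 8.1e-07 and 0.0015). ATP5MK averaged 60.2 ± 7.57, 450 ± 78.5 and 337 ± 35.9 in that order. Hep3B minus HepG2 was -1.94 ± 0.14 on the log2 scale (adjusted p = 6.0e-14), and HepG2 and Huh7 were not told apart with all arrays (0.34, adjusted p = 0.22), while without Huh7 COP1 siRNA replicate 3 that pair passed (0.34, adjusted p = 0.016). COX7A2 itself averaged 7267 ± 756, 9831 ± 1567 and 16988 ± 394 in control cells in that order, with differences of -1.22 (adjusted p = 0.0011) and -0.80 (adjusted p = 0.042) from Huh7.

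Further large differences between control cells, all past the limma test, were spread over the complexes. Against Huh7, the cells labelled Hep3B were higher in NDUFA10 (1.27) and lower in ATP5MK (-1.60) and NDUFA11 (-1.32), and HepG2 was lower in NDUFV1 (-1.30), the subunit that binds NADH, and in NDUFA12 (-1.11). Against HepG2, the cells labelled Hep3B were higher in ATP5MC2 (1.38), NDUFA9 (1.10) and NDUFV1 (0.62), and lower in NDUFAB1 (-1.20), NDUFB5 (-0.96) and NDUFV2 (-0.95).

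**Figure D5:**
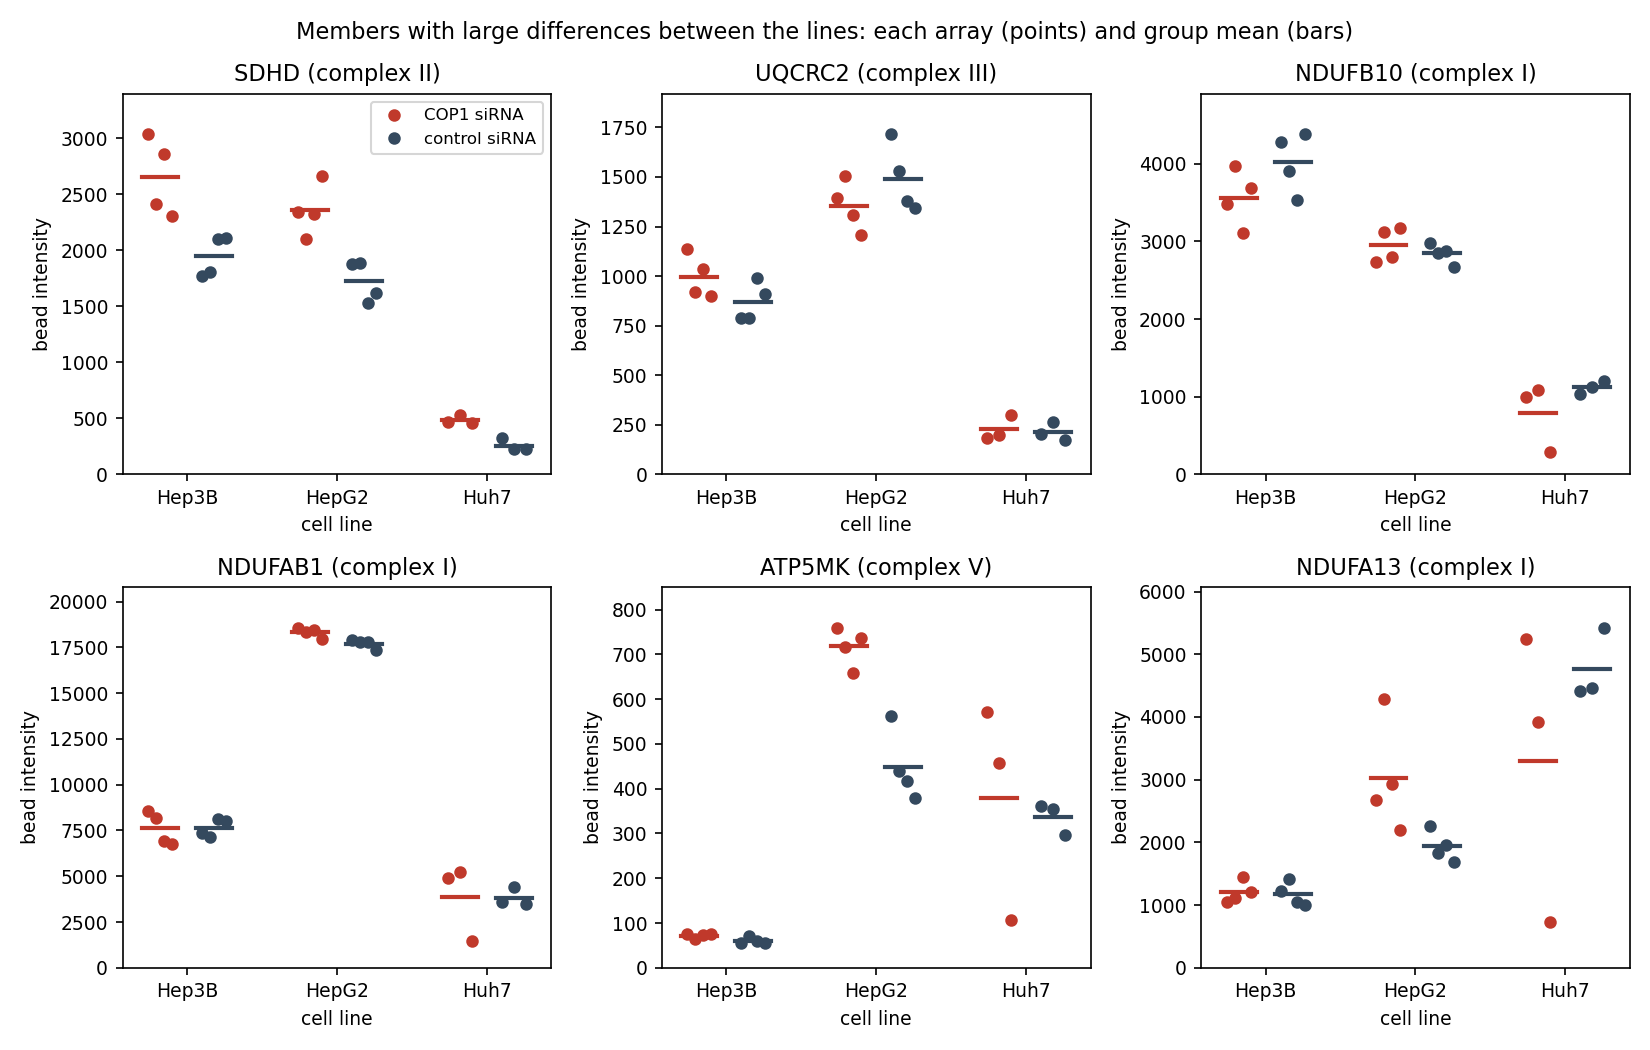
Bead intensity (y axis, linear) of 6 members with large differences between control cells, on each array (points) with the group mean (bar), COP1 siRNA left of control siRNA in Hep3B, HepG2 and Huh7. SDHD, UQCRC2 and NDUFB10 are lowest in Huh7, NDUFAB1 is highest in HepG2, ATP5MK is lowest in the cells labelled Hep3B and NDUFA13 is highest in the Huh7 control cells.

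For 12 members there was more than 1 probe. In 3 of them the probes differed in whether the change with COP1 siRNA passed the limma test. The main probe of ATP5IF1, which encodes the inhibitor of ATP hydrolysis by the ATP synthase, had log2 changes of -0.24, 0.17 and -0.68 in Hep3B, HepG2 and Huh7, none past the limma test (smallest adjusted p = 0.23). Its dimmer second probe was at 624, 801, 739 and 675 with COP1 siRNA and at 329, 355, 308 and 321 with control siRNA in HepG2, a change of 0.96 (limma p adjusted over all probes = 1.1e-06). In Huh7 the second probe was at 158, 274 and 221 with COP1 siRNA and at 44.9, 40.5 and 7.94 with control siRNA, a change of 1.46 (adjusted p = 0.0062), and replicate 3 was not low on it. In the cells labelled Hep3B it changed by -0.20 (adjusted p = 0.13). In control cells the main probe averaged 1712 in those labelled Hep3B and 808 in HepG2, while the second ran the other way, at 123 and 328. Probes of other members could also disagree on control levels. The main probe of ATP5MC1 averaged 6219 in the control cells labelled Hep3B and 5016 in those of HepG2, and its second probe 38.0 and 495. UQCR10, a small complex III subunit, had a main-probe change of 0.25 in HepG2 (adjusted p = 0.24), while its other probes were at 0.84 (adjusted p = 5.7e-05) and 0.52 (adjusted p = 0.0011). ATP5F1D, the delta subunit of the F1 head, had 0.25 on the main probe (adjusted p = 0.11) and 0.48 on the second (adjusted p = 0.0026) in HepG2. Which transcripts the probes read was not tested. COX7A2, SDHD, ATP5MG and NDUFS4 were each read by a single probe.

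Genes that work around the respiratory chain were counted by role, with all features called at 28.3% in the cells labelled Hep3B, 24.5% in HepG2 and 9.39% in Huh7. Of 39 tested genes for electron carriers and assembly factors, 4 were higher and 8 lower in the cells labelled Hep3B, 9 higher and 3 lower in HepG2, and 2 higher and 3 lower in Huh7 (5 and 3 without replicate 3), which is 30.8%, 30.8% and 12.8% called in that order of lines. These 39 include ATP5IF1, which is also counted among the complex V members and was called in no line. COQ9, needed to make ubiquinone, fell in all 3 lines. It averaged 321 ± 14.1 with COP1 siRNA and 989 ± 33.5 with control siRNA in the cells labelled Hep3B (log2 change -1.42, limma adjusted p = 2.1e-09), 609 ± 98.6 and 1693 ± 149 in HepG2 (-1.38, adjusted p = 2.1e-08), and 275 ± 29.6 and 1058 ± 72.0 in Huh7 (-1.70, adjusted p = 0.0010). ATPAF1, an assembly factor of the F1 head of the ATP synthase, also changed in all 3, by -0.36, -0.77 and -0.87 in that order of lines (adjusted p = 0.0087, 8.1e-05 and 0.017). Without replicate 3 the Huh7 changes were -1.71 for COQ9 (adjusted p = 4.8e-06) and -0.95 for ATPAF1 (adjusted p = 0.00063), with 0.57 for CYCS (adjusted p = 0.013) and -0.71 for COQ5 (adjusted p = 0.0031). CYCS, cytochrome c, rose by 0.61 in the cells labelled Hep3B (adjusted p = 8.5e-05) and by 0.58 in Huh7 (adjusted p = 0.044). COX20, an assembly factor of complex IV, changed by -0.60 in the cells labelled Hep3B (adjusted p = 8.6e-05) and by -0.64 in HepG2 (adjusted p = 0.00040). ECSIT, a complex I assembly factor, rose by 0.61 in HepG2 (adjusted p = 0.00038), FOXRED1, another, changed by -0.60 in the cells labelled Hep3B (adjusted p = 0.00028), and COQ5, a ubiquinone methyltransferase, changed by -0.70 in Huh7 (adjusted p = 0.022).

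Of 19 tested genes of the tricarboxylic acid cycle and pyruvate oxidation, 8 were higher and 3 lower in the cells labelled Hep3B, 4 higher and 3 lower in HepG2, and 2 lower in Huh7 (4 without replicate 3), which is 57.9%, 36.8% and 10.5% called, against 28.3%, 24.5% and 9.39% of all features. Pyruvate carboxylase (PC) changed in opposite directions, with -0.46 in the cells labelled Hep3B (limma adjusted p = 0.0018), 0.56 in HepG2 (adjusted p = 0.0047) and -1.27 in Huh7 (adjusted p = 0.0058). IDH3A, a subunit of the NAD-dependent isocitrate dehydrogenase, rose by 0.69 in the cells labelled Hep3B (adjusted p = 1.3e-05), where DLST, of the oxoglutarate dehydrogenase complex, changed by -0.69 (adjusted p = 2.9e-05). IDH3G rose by 0.56 in HepG2 (adjusted p = 0.0035) and IDH2, the NADP-dependent mitochondrial enzyme, changed by -0.94 in Huh7 (adjusted p = 0.020). In Huh7 without replicate 3, PC was at -1.13 (adjusted p = 0.00019) and IDH2 at -0.84 (adjusted p = 0.0028).

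Of 20 tested regulators of mitochondrial gene expression, 5 were higher in the cells labelled Hep3B, 3 higher and 4 lower in HepG2, and 2 higher in Huh7 (3 higher and 4 lower without replicate 3), which is 25% called in Hep3B, 35% in HepG2 and 10% in Huh7, against the same 28.3%, 24.5% and 9.39%. TFAM, which packages and transcribes mitochondrial DNA, averaged 1648 ± 64.8 with COP1 siRNA and 1080 ± 39.0 with control siRNA in the cells labelled Hep3B (0.58, limma adjusted p = 4.2e-05), and 1526 ± 475 and 447 ± 79.6 in Huh7 (1.59, adjusted p = 0.0068). TFB2M, its partner in transcription, rose by 0.64 in the cells labelled Hep3B (adjusted p = 2.6e-05). YY1 rose by 0.90 in Huh7 (adjusted p = 0.026). Without replicate 3 TFAM was at 1.37 (adjusted p = 0.00011) and YY1 at 0.92 (adjusted p = 0.0032). In HepG2, HIF1A changed by -1.25 (adjusted p = 2.7e-07), NFE2L2 by -0.79 (adjusted p = 0.00024) and PPARGC1A, a coactivator of respiratory chain genes, by -0.59 (adjusted p = 0.0014). In Huh7 without replicate 3, HIF1A was at -0.85 (limma adjusted p = 0.027), PPARGC1A at -0.72 (adjusted p = 0.0054) and NFE2L2 at 0.26 (adjusted p = 0.36). ESRRA at -0.77 (adjusted p = 0.0025) and EPAS1 at -0.59 (adjusted p = 0.011) were also called lower in that fit.

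Of 22 tested genes for mitochondrial carriers, import and outer membrane, 3 were higher and 2 lower in the cells labelled Hep3B, 7 lower in HepG2, and 1 lower in Huh7 (3 higher and 3 lower without replicate 3), which is 22.7%, 31.8% and 4.55% called, against 28.3%, 24.5% and 9.39% of all features. TIMM23, the channel of the inner membrane import machinery, fell in all 3 lines. It averaged 2668 ± 198 with COP1 siRNA and 7490 ± 677 with control siRNA in the cells labelled Hep3B (-1.46, limma adjusted p = 7.1e-09), 1941 ± 65.5 and 5915 ± 356 in HepG2 (-1.57, adjusted p = 2.7e-10), and 1602 ± 417 and 3709 ± 461 in Huh7 (-1.20, adjusted p = 0.015, and -0.98 with an adjusted p of 0.00063 without replicate 3). TOMM40, the channel of the outer membrane, changed by -0.49 in the cells labelled Hep3B (adjusted p = 0.00052) and by -1.07 in HepG2 (adjusted p = 1.8e-07), and TOMM20, a receptor beside it, changed by -0.80 in HepG2 (adjusted p = 7.2e-05). In Huh7 without replicate 3, TOMM40 was at -0.45 (limma adjusted p = 0.041) and TOMM20 at -0.58 (adjusted p = 0.029). OPA1, which fuses inner membranes, rose by 0.52 in the cells labelled Hep3B (adjusted p = 0.0040) and changed by -0.62 in HepG2 (adjusted p = 0.0015). Genes lower in all 3 lines, as COX7A2, COQ9, ATPAF1 and TIMM23 were, made up 1.39% of all features.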

How the data were processed

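The deposited values are bead intensity on a linear scale, which the authors background-subtracted and quantile-normalized with GenomeStudio 2009.1, per the submitters' processing notes, and 23.7% of them are below 0. Another 44 per-sample columns could not be tied to samples and were not used. Arrays were grouped by the labels' cell line and siRNA. Symbols came from the platform annotation, updated through RefSeq. Here intensity was normexp-corrected (offset 50), log2-transformed and quantile-normalized, and 16563 probes above 21.8 (the 0.98 quantile of the sizes of negative values) on at least 3 arrays were kept. The brightest probe stood for each gene. Tests used limma 3.58.1 in R 4.3.3, checked on simulated data, with Benjamini-Hochberg adjustment over 13870 features. Each line was fitted alone, because the median residual SD differed (0.135 in Hep3B, 0.163 in HepG2, 0.231 in Huh7). Differences between lines used all 22 arrays with weights by line. The number of arrays limits the precision. The members, the gene lists and the tests were chosen with earlier results of these data known. Named members were COX7A2, the 5 largest called rises and falls a line, those called one way in at least 2 lines, up to 6 by the F test, the 4 largest called differences each way between control lines, isoform pairs, those not above background and those with other probes; from other lists, up to 4 called genes a line by adjusted p. SDHC, NDUFS4 and NDUFS7 in Huh7 without replicate 3, the other complex I rises in HepG2, ATP5MJ and ATP5MF were named after their values were seen. Alternatives included array weights, other background handling, a replicate block and leaving out each array.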

Additional observations from a re-analysis of the deposited data

Results flagged for a closer look

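Among groups of 4 arrays, 15 of 268 combinations of member and group had 1 array far from the other three by Dixon's test at 95%, and chance gives about 1 in 20. Values here are log2 levels. HepG2 COP1 siRNA replicate 2 was the highest of its group for ATP5ME (14.24), NDUFB2 (12.93) and NDUFB3 (12.57) and the lowest for NDUFA10 (8.04), and replicate 3 of that group was the lowest for NDUFB6 (10.91). In the cells labelled Hep3B, COP1 siRNA replicate 3 was the highest for ATP5MC2 (13.58) and NDUFA1 (13.71), and COP1 siRNA replicate 4 was the highest for NDUFB6 (10.64). Control replicate 2 of the same cells was the highest for ATP5MC2 (13.50), COX7A2 (13.05), NDUFA1 (13.30), NDUFA11 (11.62) and NDUFB7 (11.78), control replicate 1 was the lowest for ATP5F1C (11.91), and control replicate 4 was the highest for NDUFS3 (12.85).

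The response to COP1 siRNA differed between the lines, by limma's F test with adjustment over all features, in NDUFS7 (adjusted p = 0.0076), NDUFS4 (0.0081), COX7A2 (0.014), SDHA (0.027), COX6A1 (0.031), NDUFA13 (0.032), ATP5MJ (0.040), UQCR11 (0.046) and NDUFB11 (0.048). Without Huh7 COP1 siRNA replicate 3, ATP5MJ (0.073) and UQCR11 (0.068) missed the threshold. The Huh7 groups of 3 arrays were not examined for single outlying arrays.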

How the results depend on the processing

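COX7A2 stayed lower in every setting run in all 3 lines, with log2 changes of -1.73 to -1.39 in the cells labelled Hep3B, -2.29 to -2.06 in HepG2 and -3.44 to -2.33 in Huh7 when 1 array was left out. Its limma adjusted p ran from 6.6e-08 to 0.0040, from 8.5e-12 to 0.00069 and from 6.3e-09 to 0.079 in that order of lines. In Huh7 it missed the threshold without normexp (-3.09, adjusted p = 0.079) and without any 1 control array. The counts depended more on the setting, and the cause was not tested. Leaving out 1 array gave 2 to 8 members higher and 1 to 2 lower in the cells labelled Hep3B, 8 to 17 higher and 1 lower in HepG2, and 0 to 4 higher and 0 to 3 lower in Huh7. With 1 fit and 1 spread over all arrays, 2 members were higher in the cells labelled Hep3B, 2 were higher in HepG2 and 10 were lower in Huh7, and with weights by line 6 were higher in HepG2 and 4 lower in Huh7. Array quality weights gave 3 higher and 6 lower in Huh7, and every probe as a feature gave 2 higher. Without normexp, 2 were lower in the cells labelled Hep3B, and 0 higher and 0 lower in Huh7, where 1 and 4 had an unadjusted limma p under 0.05. An offset of 16 gave 8 higher in HepG2. An adjusted p under 0.01 gave 2 higher in the cells labelled Hep3B, 7 in HepG2 and 0 in Huh7 (1 at an unadjusted p under 0.05). The F test called 5 members without weights and 3 without normexp. Hep3B minus HepG2 had 8 higher and 16 lower without weights, and HepG2 minus Huh7 had 9 lower without normexp and 27 lower without Huh7 COP1 siRNA replicate 3, a setting chosen after seeing the data. NDUFC1 and ATP5MK turned to higher in Huh7 without that array (0.54 and 0.51), and ranged down to -0.51 and -0.40 without COP1 siRNA replicate 1. Arrays of the same number were correlated by -0.28 to 0.10 after removing group means. With groups of 3 or 4 arrays this cannot decide whether arrays of the same number belong together, and the labels do not say. With the replicate block, Huh7 had 0 members higher (1 at an unadjusted limma p under 0.05) and 1 lower, HepG2 16 and 1, and the cells labelled Hep3B 3 and 1. The Huh7 call of SDHD ended with that block (0.77, adjusted p = 0.094) and without normexp (0.94, adjusted p = 0.056). Values near background, in NDUFA5, NDUFB1, NDUFC2 and UQCRB, are limited by their signal.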
